A study of Mus musculus with 2 samples.

Results

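The genes that copy DNA were followed here in the endothelium of the embryonic mouse kidney. The group holds 46 genes of origin licensing, the replicative helicase, the DNA polymerases, the sliding clamp and its loader, and nucleotide supply. They were chosen by name, and every probe set that the platform annotation gives to exactly 1 of them was used on both arrays. This made 101 of the 34945 probe sets with 1 annotated gene, and 46 of 18193 genes. All 46 gene identifiers were found in the RefSeq gene table, and none of the symbols had changed.

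The series holds 2 arrays of 1 group, written here as replicate 1 and replicate 2. Each array carried RNA from a pool of about 5 to 10 kidneys of E15.5 fetuses (Theiler stage 23, sex unknown) of the CD-1 strain. The fetuses carried the reporter Tg(TIE2GFP)287Sato, in which the promoter of Tie2 (gene Tek) drives green fluorescent protein, and the kidney cells were dissociated with trypsin and sorted by flow cytometry. The promoter is known to be active in endothelium and also in some haematopoietic cells, which limits the reporter as a mark of endothelium alone. The labels name the endothelial layer of the main renal vessels as the source, whereas the protocol describes dissociation of whole kidneys, and the sample titles carry the name FLK1 (gene Kdr) although the reporter is Tie2-GFP. No label says that the pools came from separate litters, and the spread between the arrays may then be technical. With 1 group there was no contrast to test, and all comparisons below are descriptions of 2 arrays without a p-value.

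In each division cycle a cell prepares its origins in G1 and fires them in S phase. The origin recognition complex, Cdc6 and Cdt1 load the MCM2-7 helicase, the kinase Cdc7 with Dbf4 fires it by recruiting Cdc45 and the GINS complex, and polymerases alpha, delta and epsilon then copy the strands behind it. Many of these genes are known targets of E2F transcription factors, which drive entry into S phase. The vasculature of the fetal kidney is growing, and its endothelial cells are known to divide.

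**Figure D1:**
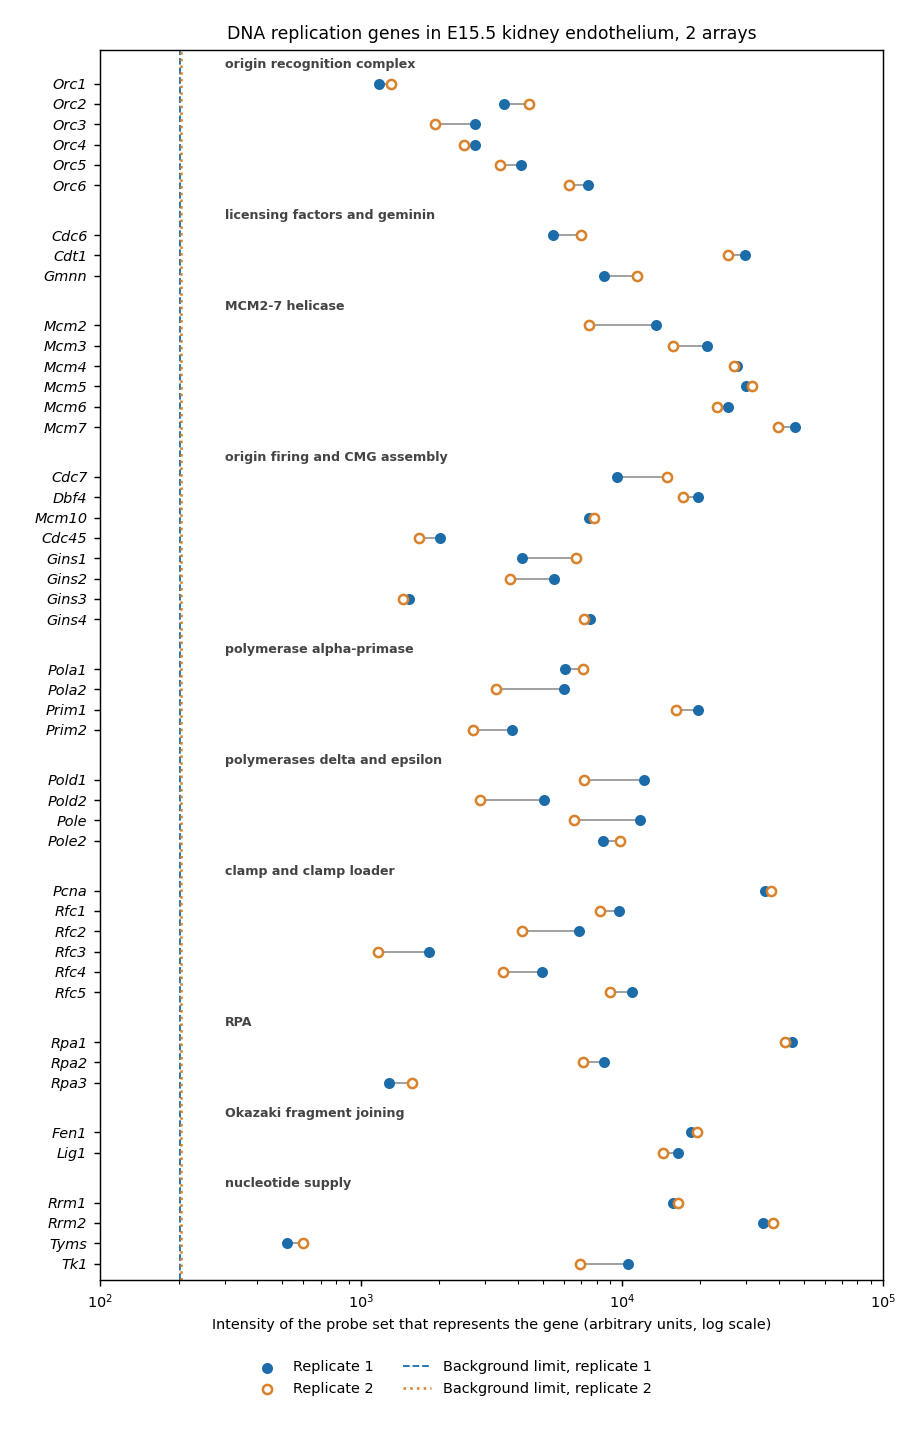
Intensity on each array of the probe set that represents each of the 46 replication genes, grouped by role, on a log axis in arbitrary units. Filled circles are replicate 1, open circles replicate 2, and the vertical lines are the background limits of 202.5 and 204.1. Both circles of every gene lie to the right of both lines, and Tyms lies nearest to them. The horizontal order of different genes is not an order of transcript levels.

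Transcripts of all 46 genes were above background on both arrays, against 61.0% of the 18193 genes on the array. A probe set was called above background where it exceeded, on both arrays, the 95th percentile of 83 probe sets for olfactory, vomeronasal and taste receptor genes, which was 202.5 in replicate 1 and 204.1 in replicate 2. Where several probe sets measured a gene, the brightest by mean log2 intensity stood for it. Since 34 of the members had several probe sets, which raises the chance that 1 of them is bright, the share of all genes with at least 2 probe sets is the closer background, and it was 77.9%. Counted as probe sets, 88 of 101 (87.1%) were above background, against 55.0% of all probe sets with 1 gene. In sorted bulk RNA, fewer cells in S phase and less RNA per cell cannot be told apart, and intensities of different probe sets are not comparable as levels.

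The 2 pools differed in these genes about as much as in all genes above background. The median size of the log2 difference, without its sign, was 0.28 over the members and 0.30 over all such genes. With its sign, as log2 of replicate 1 minus replicate 2 after the arrays were centred on each other, the difference had a median of 0.20 over the members and 0.02 over all 11102 genes above background. It ranged from -0.67 to 0.87, so the largest fold between the arrays was 1.83, and its SD of 0.39 over the members lay beside 0.51 over all genes. No member passed 2-fold in either direction, a change that 2.10% of all genes reached towards replicate 1 and 2.71% towards replicate 2. At 1.5-fold, 8 members (17.4%) were higher in replicate 1, where 10.3% of all genes were, and 2 members (4.35%) were higher in replicate 2, where 9.95% were. By any amount, 30 members (65.2%) were higher in replicate 1, against 52.0% of all genes. The number within 1.2-fold was 21 of 46 (45.7%), close to the 45.0% of all genes.

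**Figure D2:**
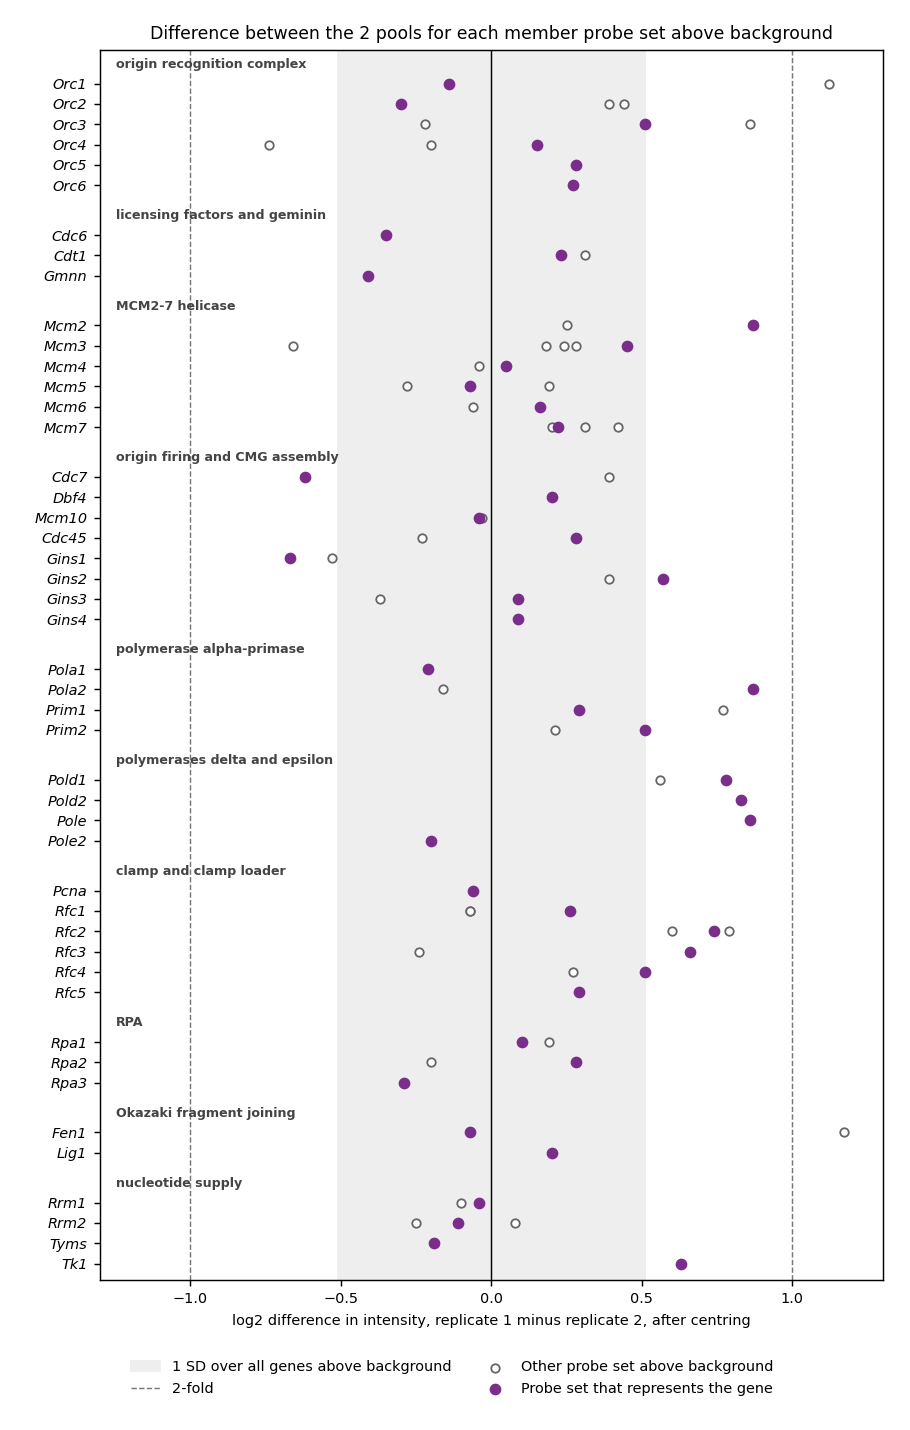
Log2 difference between the arrays, replicate 1 minus replicate 2 after centring, for each of the 88 member probe sets above background. Filled points are the probe set that represents the gene, open points its other probe sets, the grey band is 1 SD (0.51) over all genes above background, and the dashed lines mark 2-fold. No filled point passes a dashed line, and the open points of Orc1 (1.12) and Fen1 (1.17) do.

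A planned search found E2F forms in 14, the CCAAT box in 23 and the GC box in 29 of 38 members. The promoters are shown for the E2F and CCAAT matches, although the choice of genes did not use sequence. The RefSeq promoter table (GRCm38.p6) gave 47 windows for 38 of the 46 members, each of 250 bases before and 50 bases from the annotated start. Gmnn, Mcm4, Gins1, Gins2, Gins4, Prim2, Pole and Rfc2 had no entry. Both strands were searched for the E2F forms TTTCCCGC, TTTCGCGC, TTTGCCGC and TTTGGCGC. At least 1 form lay in 14 of 38 members (36.8%), against 704 of 27025 genes of the table (2.60%) and 4.86% of the 9028 genes of the table that were above background here. Other replication genes, the set most like the members, held a form in 17 of 60 (28.3%), and the difference between the 2 shares was not tested. A match is a description of the letters and not a site of binding, and no match says only that these letters are not in the window. The 250 bases before the start are printed for Orc1, Cdc6, Mcm5 and Pola1, which hold an E2F form there, and for Pcna, which holds none. They read 5′ to 3′ along the gene's own strand, and the capitals mark the E2F forms and the CCAAT box (CCAAT or, on the other strand, ATTGG).
Orc1, chr4:108579204-108579453, plus strand: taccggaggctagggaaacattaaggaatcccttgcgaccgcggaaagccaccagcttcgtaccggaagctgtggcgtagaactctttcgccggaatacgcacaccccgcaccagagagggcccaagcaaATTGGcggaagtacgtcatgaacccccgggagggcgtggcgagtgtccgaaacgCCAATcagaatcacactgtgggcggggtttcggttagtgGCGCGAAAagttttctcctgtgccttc
Cdc6, chr11:98907901-98908150, plus strand: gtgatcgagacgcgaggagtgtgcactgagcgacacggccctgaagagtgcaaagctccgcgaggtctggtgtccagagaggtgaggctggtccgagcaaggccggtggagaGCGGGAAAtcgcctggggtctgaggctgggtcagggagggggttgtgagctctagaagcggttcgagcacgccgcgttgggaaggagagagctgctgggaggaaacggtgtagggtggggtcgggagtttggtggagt
Mcm5, chr8:75109259-75109508, plus strand: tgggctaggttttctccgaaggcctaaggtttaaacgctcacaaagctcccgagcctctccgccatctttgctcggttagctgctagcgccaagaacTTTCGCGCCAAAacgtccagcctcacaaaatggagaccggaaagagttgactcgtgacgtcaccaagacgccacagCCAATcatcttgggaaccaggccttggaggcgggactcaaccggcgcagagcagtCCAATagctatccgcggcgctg
Pola1, chrX:93632156-93632405, minus strand: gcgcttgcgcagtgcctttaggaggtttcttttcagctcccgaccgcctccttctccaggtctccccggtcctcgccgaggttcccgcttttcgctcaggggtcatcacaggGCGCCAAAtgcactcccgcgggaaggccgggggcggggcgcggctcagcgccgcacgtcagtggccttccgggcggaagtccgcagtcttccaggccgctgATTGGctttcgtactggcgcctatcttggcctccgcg
Pcna, chr2:132253181-132253430, minus strand: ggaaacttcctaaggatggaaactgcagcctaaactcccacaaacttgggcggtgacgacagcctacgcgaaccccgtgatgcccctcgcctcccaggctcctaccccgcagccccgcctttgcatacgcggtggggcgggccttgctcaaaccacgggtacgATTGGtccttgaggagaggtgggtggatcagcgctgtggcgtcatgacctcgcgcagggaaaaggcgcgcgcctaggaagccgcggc
Positions count from 0 at the first transcribed base. In Orc1 the form began at -27 and had 2 CCAAT boxes upstream of it. In Mcm5 the forms TTTCGCGC and TTTGGCGC overlapped on opposite strands, from -153 to -142, and were counted as 1 place. Cdc6 held its form without a CCAAT box, and Pcna a CCAAT box without an E2F form.

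The other 10 members with an E2F form are shown by short stretches around it, in which the capitals mark E2F forms only. They let the reader see that the form occurs in either orientation and on both sides of the start.
Orc3, chr4:34614965-34614994, minus strand: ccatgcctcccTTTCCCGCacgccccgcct
Cdt1, chr8:122568036-122568064, plus strand: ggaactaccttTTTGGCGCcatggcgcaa
Mcm3, chr1:20820275-20820304, minus strand: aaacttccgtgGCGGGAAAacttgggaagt
Mcm3, chr1:20820263-20820285, minus strand: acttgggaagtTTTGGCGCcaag
Mcm6, chr1:128359795-128359824, minus strand: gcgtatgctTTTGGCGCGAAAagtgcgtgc
Mcm6, chr1:128359734-128359763, minus strand: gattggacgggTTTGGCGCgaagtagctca
Mcm7, chr5:138172030-138172059, minus strand: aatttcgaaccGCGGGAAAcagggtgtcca
Mcm7, chr5:138171849-138171878, minus strand: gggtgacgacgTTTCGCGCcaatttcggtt
Gins3, chr8:95633507-95633536, plus strand: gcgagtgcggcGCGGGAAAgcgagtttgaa
Pold1, chr7:44548766-44548787, minus strand: cgtatcttgtgGCGGGAAAagc
Pole2, chr12:69228162-69228191, minus strand: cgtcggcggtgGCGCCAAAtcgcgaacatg
Rfc3, chr5:151651200-151651229, minus strand: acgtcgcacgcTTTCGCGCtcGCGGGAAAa
Lig1, chr7:13278841-13278870, plus strand: cgccaaagtgcGCGCGAAAtctgtgtggcg
The 14 members held 20 matches, which made 18 places once the overlapping matches of Mcm5 and Mcm6 were joined. They spanned positions -165, in Mcm7, to 46, in Pold1. Of the matches, 12 began before the start and 8 at or after it. Mcm3, Mcm5, Mcm6, Mcm7 and Rfc3 held more than 1.

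By role, an E2F form was found in 4 of the 5 MCM2-7 genes in the table, in both Cdc6 and Cdt1, in 2 of 6 genes of the origin recognition complex and in 2 of 3 of polymerases delta and epsilon. It was found in 1 of 5 clamp and loader genes, 1 of 5 genes of origin firing, 1 of 3 of polymerase alpha-primase and 1 of 2 of Okazaki fragment joining, in none of the 3 RPA genes and in none of the 4 nucleotide supply genes. TTTCCCGC lay in 7 members, TTTCGCGC in 6, TTTGGCGC in 6 and TTTGCCGC in 0, against 1.24%, 0.374%, 0.585% and 0.507% of all genes. The CCAAT box was in 23 members (60.5%), against 41.1% of all genes 42.5% of those above background and 46.7% of the other replication genes. The GC box GGGCGG was in 29 members (76.3%), against 38.2% of all genes 69.7% of those above background and 80.0% of the other replication genes. The CCAAT box lay in 8 of the 14 members with an E2F form and in 15 of the 24 without one. Fen1 and Rfc5 held none of the 3. The shares of all genes with both motifs, or with none of the 3, were not computed. The 14 members with an E2F form had a median log2 difference between the arrays of 0.18, with 9 higher in replicate 1. The 24 matched members without one had a median of 0.23, with 15 higher in replicate 1.

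**Figure D3:**
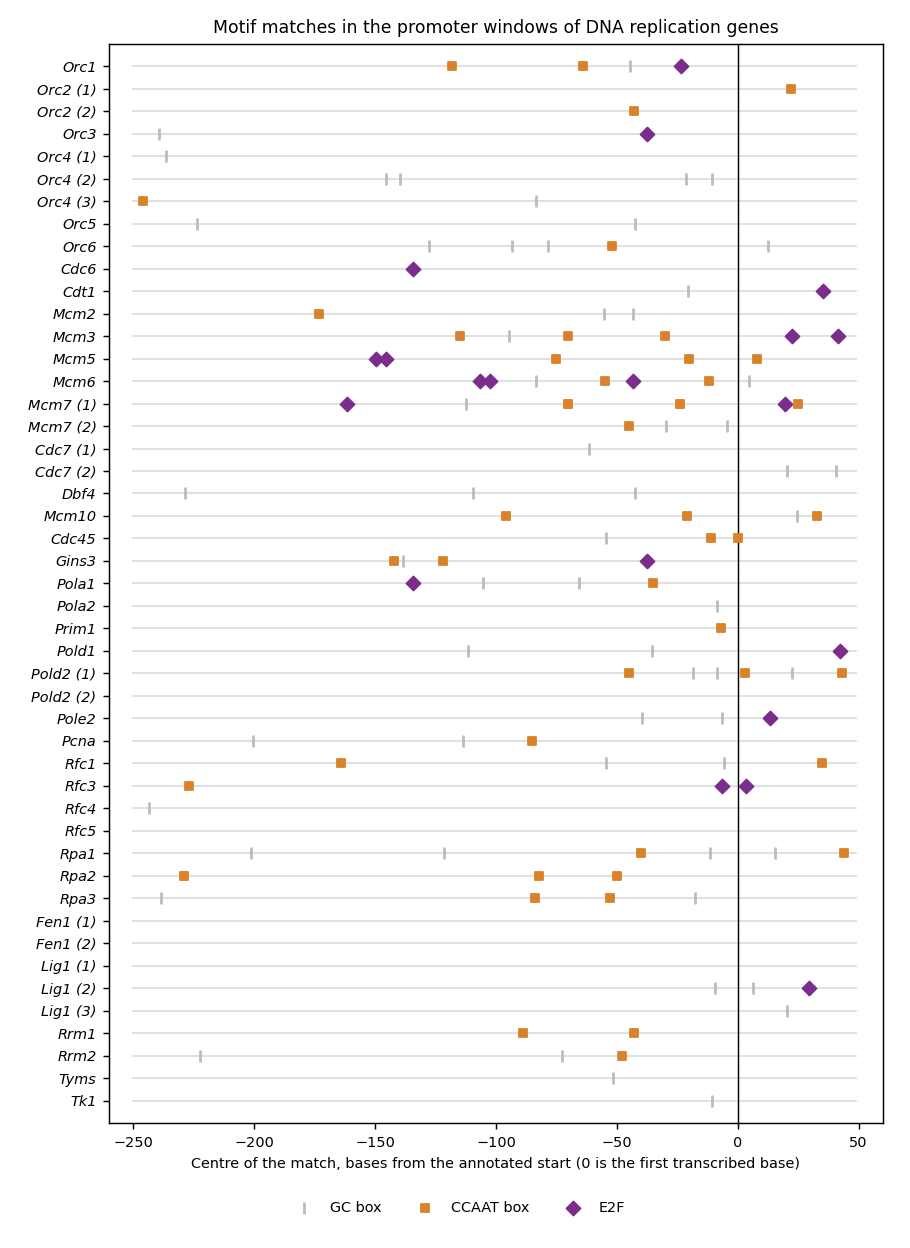
Position of each motif match in the 47 promoter windows of 38 replication genes, in bases from the annotated start, with alternative starts of a gene numbered. Diamonds are the E2F forms, squares the CCAAT box and vertical ticks the GC box GGGCGG. The 20 diamonds lie in 14 genes, 12 of them beginning before the start.

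The origin recognition complex marks the places where replication can start, and all 6 of its genes were above background on both arrays. Orc1, the largest subunit, read 1176 in replicate 1 and 1305 in replicate 2. Its second probe set read 442.0 and 204.9, so the 2 probe sets of Orc1 leaned opposite ways (log2 differences of -0.14 and 1.12). The second lay only just above the limit in replicate 2. Orc2 read 3546 and 4404, while both of its dimmer probe sets were higher in replicate 1 (0.44 and 0.39). Orc3 read 2732 and 1930, and its other probe sets again leaned both ways (0.86 and -0.22). Orc4 gave 2729 and 2485 on its representing probe set, against -0.74 and -0.20 on a pair of dimmer ones, and its last one was below background at 58.3 and 141.6. Orc5 and Orc6 had 1 probe set each. Orc5 read 4105 and 3417, and Orc6, the subunit most loosely held by the complex, 7451 and 6252. The list had a median of 0.21, with 4 genes higher in replicate 1 and 2 in replicate 2, and none beyond 1.5-fold.

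The licensing factors bring the helicase to the origin. Cdc6, an ATPase that joins the origin recognition complex, read 5447 in replicate 1 and 6993 in replicate 2. Cdt1, which carries the MCM2-7 ring to the origin, read 29624 and 25484, and 6080 and 4941 on a second probe set. Geminin (Gmnn), the inhibitor of Cdt1, read 8558 and 11434. So the loader Cdt1 and its inhibitor leaned opposite ways between the pools, by 0.23 and -0.41, both within the SD of 0.51. The last Cdt1 probe set was below background on both arrays (3.03 and 61.0).

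The MCM2-7 complex is the ring that unwinds DNA, and its 6 genes were above background with a median difference of 0.19. Mcm2 stood apart within the list, at 13462 in replicate 1 and 7456 in replicate 2, which is 1.82-fold. Its other probe set read 10327 and 8782, only 0.25 apart on the log2 scale, so the size of the Mcm2 difference depended on the probe set. Mcm3 read 21232 and 15731 and was the member with the most probe sets, 5, of which 4 were higher in replicate 1 (0.18 to 0.45) and 1 was lower there (-0.66). Mcm4 read 27557 and 26924. Mcm5 read 29892 and 31585. The differences of these last genes, 0.05 and -0.07, were among the smallest of all members. The other Mcm5 probe sets leaned both ways (0.19 and -0.28). Mcm6 read 25572 and 23065 (0.16), and 20279 and 21377 on a second probe set (-0.06). Its lowest probe set was below background at 58.3 and 12.8. Mcm7 read 45966 and 39750, and all 4 of its probe sets were higher in replicate 1, by 0.20 to 0.42. The probe sets that represent Mcm2, Mcm3 and Mcm7 carried a suffix that marks probes shared with other transcripts, which could add to their signal. Those of Mcm5 and Mcm6 carried the suffix for similar sequences.

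Origins fire when Cdc7 and Dbf4, together a protein kinase, act on the loaded ring and the CMG helicase (Cdc45, MCM2-7 and GINS) forms. Cdc7, the catalytic subunit, read 9597 in replicate 1 and 14881 in replicate 2, 1.54-fold higher in replicate 2, but its other probe set read 378.3 and 290.8 and leaned to replicate 1. Dbf4, its activator, read 19539 and 17129, with its other probe set below background at 99.0 and 159.1. The kinase and its activator thus differed in direction on their representing probe sets. Mcm10, a factor of helicase activation, read 7510 and 7811, and 789.0 and 813.0 on a second probe set. The last Mcm10 probe set passed the limit in replicate 1 (216.0) and not in replicate 2 (182.3). Cdc45 read 2004 and 1662, with a difference of 0.28 that turned to -0.23 on its other probe set. All of these were within 2-fold.

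The 4 GINS genes encode 1 complex, and none was over 2-fold apart. Gins1 read 4131 in replicate 1 and 6654 in replicate 2, the largest lean to replicate 2 of any member (1.60-fold), and its other probe set leaned the same way (-0.67 and -0.53). Gins2 read 5501 and 3741 and leaned to replicate 1 on both of its probe sets (0.57 and 0.39). Gins1 and Gins2 thus lay on opposite sides of 0 on all of their probe sets. Gins3 read 1530 and 1450, and Gins4 read 7555 and 7154, both at 0.09. A second Gins3 probe set read 341.3 and 445.5 and leaned the other way (-0.37).

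Polymerase alpha with primase lays down the primer for each new strand. Pola1, the catalytic subunit, read 6058 in replicate 1 and 7078 in replicate 2. Pola2, its regulatory subunit, read 5986 and 3296, which at 1.83-fold was the largest fold of all members. A second Pola2 probe set read 1746 and 1963 and leaned the other way (-0.16), so the Pola2 difference rested on 1 probe set. Prim1, the catalytic primase subunit, read 19647 and 16199, and 13836 and 8194 on a second probe set. Prim2, the large primase subunit, read 3799 and 2691, and 2318 and 2021 on a second one. Both primase genes were higher in replicate 1 on all of their probe sets above background. Pola1, Pola2 and Prim2 each had 1 further probe set below background.

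The polymerases that extend the strands had the highest median difference of the 10 roles, 0.80 over 4 genes. Pold1, the catalytic subunit of polymerase delta, read 12160 in replicate 1 and 7145 in replicate 2, and its other probe set 6140 and 4188. Pold2, a small subunit of polymerase delta, read 5037 and 2867. Pole, the catalytic subunit of polymerase epsilon, read 11775 and 6549. These 3 genes were 1.72-fold, 1.77-fold and 1.81-fold higher in replicate 1, with log2 differences of 0.78, 0.83 and 0.86. Pole2, the second subunit of polymerase epsilon, read 8498 and 9858, slightly higher in replicate 2 (-0.20). Its further probe set was below background at 77.5 and 104.2. Only Pold1 of the first 3 had a second probe set, and it leaned the same way by 0.56.

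PCNA is the sliding clamp that holds polymerases on DNA, and the RFC complex loads it. Pcna read 35256 in replicate 1 and 37195 in replicate 2, a difference of -0.06. Rfc1, the large loader subunit, read 9758 and 8217, while both of its other probe sets were at -0.07. Rfc2 read 6863 and 4145 (1.67-fold), and its other probe sets leaned the same way by 0.60 and 0.79. All 3 probe sets of Rfc2 thus lay beyond the SD of 0.51. Rfc3 read 1817 and 1161 (1.58-fold), but 552.9 and 657.1 on a second probe set. Rfc4 read 4963 and 3504, and Rfc5 10935 and 9043. The clamp itself therefore hardly differed between the pools, and all 5 loader genes were higher in replicate 1 on their representing probe sets.

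RPA coats single-stranded DNA at the fork. Rpa1, the large subunit, read 44745 in replicate 1 and 42227 in replicate 2, Rpa2, the middle subunit, read 8545 and 7098, and Rpa3, the small subunit, read 1277 and 1570. The 3 lay within 0.30 of 0 on the log2 scale. Rpa2 leaned the other way on its second probe set (-0.20 against 0.28). Fen1, the nuclease that trims flaps of Okazaki fragments, read 18375 and 19501, whereas its other probe set read 4328 and 1945. That probe set, with the second of Orc1, made 2 of 88 above background that were over 2-fold higher in replicate 1 (2.07% of all probe sets with 1 gene were), and 0 were over 2-fold higher in replicate 2 (2.90% were). Lig1, the ligase that seals the fragments, read 16425 and 14386 on its only probe set.

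Nucleotide supply limits how fast DNA can be made. Rrm1 and Rrm2, the large and small subunits of ribonucleotide reductase, read 15757 and 34899 in replicate 1, and 16386 and 38061 in replicate 2, with differences of -0.04 and -0.11. The other probe sets of Rrm2 leaned both ways (0.08 and -0.25). Tk1, which salvages thymidine in dividing cells, read 10581 and 6913, 1.54-fold higher in replicate 1. Tyms, which makes thymidylate, was the member nearest to background. It read 518.8 and 597.0 on its brightest probe set, a second passed the limit in replicate 2 alone (178.0 and 206.3), and a further pair was below it on both arrays (81.0 and 136.6, then 5.27 and 80.4). A probe set annotated to both Tyms and the pseudogene Tyms-ps was left out by the rule and read 8766 and 7183. With it, the Tyms difference was 0.30 in place of -0.19. It cannot be told apart which of the 2 that signal came from. Tyms was also the member lost when a gene was scored by the median of its probe sets, which left 45 of 46.

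Probe sets of the same gene measured the difference between the pools separately. Of 30 members with at least 2 probe sets above background, 13 (43.3%) had all of them on the same side of 0, against 47.9% of 4921 such genes on the array. Of these, 10 were higher in replicate 1 throughout (Cdt1, Gins2, Mcm2, Mcm7, Pold1, Prim1, Prim2, Rfc2, Rfc4 and Rpa1) and 3 in replicate 2 (Gins1, Mcm10 and Rrm1). The median span between probe sets of a member was 0.40 on the log2 scale, against a median lean of the members of 0.20, and it was 0.50 over all such genes. Of the 13 member probe sets that were not above background on both arrays, 11 passed on neither, and they lay in 11 genes that all had a brighter probe set. The representing probe set carried a suffix for shared or similar sequences in 10 members, where related transcripts could add to the signal.

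Other genes that act with the members were measured beside them. Of 75, 72 (96.0%) were above background on both arrays. The share was 61.0% of all genes and 77.9% of those with at least 2 probe sets. The 72 had a median difference of -0.02. All 12 fork protection and firing factors (median 0.17), 13 accessory subunits and alternative loaders (0.07), 7 chromatin assembly and maintenance methylation genes (0.20) and 9 further nucleotide supply genes (0.30) passed. The G1/S regulators, which control entry into S phase, passed in 21 of 23. Of these, 3 were higher in replicate 1 and 18 in replicate 2, with a median of -0.19. Of all genes above background, 52.0% were higher in replicate 1. Chosen after their values were seen, E2f4 (235.1 in replicate 1 and 197.8 in replicate 2) and Ccne2 (199.0 and 385.2) passed on 1 array each. The largest differences towards replicate 1 were those of Cdk2, Chtf18 and Cad. Cdk2, the S phase kinase, read 5994 and 409.7, a 14.76-fold difference seen on 1 probe set, since its other read 12.0 and 23.9, below background. Chtf18, of an alternative clamp loader, read 1326 and 609.9, and Cad, of pyrimidine synthesis, 6356 and 3310. Towards replicate 2 they were Rbl2, a retinoblastoma relative (618.8 and 1468), Atad5, which unloads the clamp (4592 and 8517), and Ccne1, cyclin E1 (8925 and 15332). The lean of Ccne1 was absent from its other probe set, which read 2029 and 1910. No member passed 2-fold on its representing probe set, a change that 2.10% of all genes reached towards replicate 1 and 2.71% towards replicate 2. On their other probe sets, Orc1 and Fen1 did pass it.

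**Figure D4:**
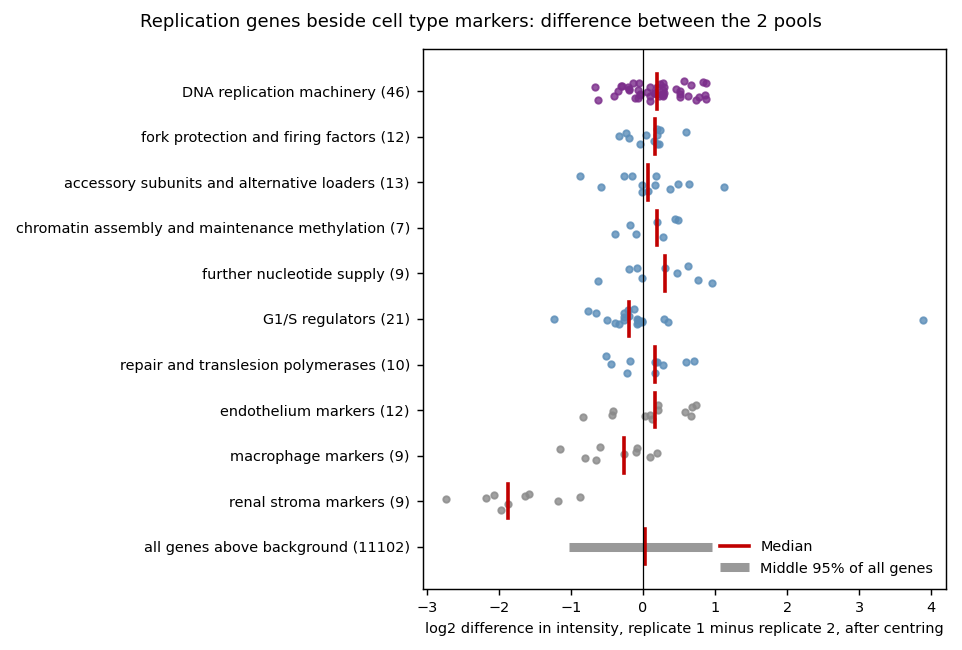
Log2 difference between the arrays, replicate 1 minus replicate 2 after centring, for genes above background in each list, with the number of genes in brackets. Each point is a gene, red lines are medians, and the grey bar spans the middle 95% of all 11102 genes above background (-1.03 to 0.95). All 46 members lie within that bar, and all 9 renal stroma genes above background lie to the left of 0, with a median of -1.88.

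The arrays differed in markers of other cells. All 12 endothelial markers were above background, against 61.0% of all genes, with Tek at 15908 in replicate 1 and 21499 in replicate 2. Intensities summed over the representing probe set of each gene of the list were 154721 in replicate 1 and 139677 in replicate 2. Such sums, here and below, also take in genes of a list that were not above background, and bright probe sets weigh most in them. Renal stroma markers passed in 9 of 10 and all 9 were higher in replicate 2 (sums of 23483 and 76028), 8 of them by over 2-fold (Foxd1, Pdgfra, Dcn, Lum, Postn, Tbx18, Col1a1 and Col3a1). Macrophage markers passed in 9 of 10 (sums of 78869 and 97934, with Itgam not above background), erythroid markers in 4 of 6 (Klf1 and Rhag not above), nephron progenitor markers in 3 of 6 and ureteric bud markers in 3 of 7. Ptprc and Synpo were over 2-fold higher in replicate 2, and Hbb-bh1 in replicate 1. Of all genes above background, 2.71% were over 2-fold higher in replicate 2 and 2.10% in replicate 1. The 6 tubule and 4 lymphoid markers passed in 0 on both arrays, and podocyte markers in 2 of 4. Of these 2, Podxl, chosen after its values were seen, is also known in endothelium. Above background on neither array were Cited1, Osr1, Lhx1, Pax8, Umod, Slc34a1, Slc12a1, Hoxb7, Nphs1, Cd3e, Cd3d and Cd79a. Stromal and macrophage cells are known to divide too. Which cells the members' signal came from cannot be told apart in these pools, and the part of such cells in the members' difference between the arrays was not tested.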

How the data were processed

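RNA of both pools was amplified in 2 rounds, labelled with biotin and hybridised to 1 array each. The deposited table holds 1 intensity per probe set and array, which the authors made with GCOS per the submitters' processing notes. Both arrays have a mean of 1500.0 after trimming 2% at each end, and medians of 233.4 and 246.7. The version of GCOS and the genome build behind the annotation are not given in the sources used here. The methods of the paper describe another array type and amplification, and were not taken for these arrays. Of 45101 probe sets, 34945 had 1 annotated gene, 932 several, 9160 none and 64 were controls. Only those with 1 gene gave gene values, except in the alternative with probe sets of several genes. The offset between the arrays was the median over all probe sets above background on both arrays, without the controls.

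Log2 differences are replicate 1 minus replicate 2, after an offset of -0.01 between the arrays was removed. The number of arrays limits the precision, and no test was made. The text names all 46 members, the 3 largest differences in each direction among other replication genes, genes of these lists above background on neither array, marker genes that were above background on neither array or over 2-fold apart, and Tek. Genes named outside this rule are marked as chosen after their values were seen. Polq (104.9 and 135.4) was the other replication gene above on neither array. The members and lists were chosen with earlier results of these data known. A planned search of protein motifs was not run, because no protein sequences were available. Tests on simulated data covered the offset between the arrays and the 2-fold call on single probe sets, and not the counts of genes or motifs. Alternatives were other background limits, each array alone, no centring, quantile normalization, a pseudocount of 100 before log2, and other ways to represent a gene. Python 3.11.15, numpy 2.4.6, pandas 2.3.3 and matplotlib 3.10.9 were used.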

Additional observations from a re-analysis of the deposited data

How the results depend on the processing

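No paired analysis was possible because the series holds 1 group. The count of members above background was 46 under 2 times the limit used, where 52.4% of all genes passed. A limit of 100 and each array alone (46 to 46) could not lower it. Of all genes, 72.7% passed that limit, 64.0% replicate 1 alone and 64.5% replicate 2 alone. The count was 45 when a gene was scored by the median over its probe sets (53.4% of all genes). With probe sets without a suffix it was 41 of 41 (57.5% of all such genes). Member probe sets above background numbered 82 to 90 under these limits and 89 to 89 on single arrays. Other replication genes numbered 69 to 75 and 73 to 73. The share of all probe sets under these settings was not computed. The median log2 difference of the members stayed between 0.14 and 0.21 (0.15 with quantile normalization). The members higher in replicate 1 numbered 27 to 31, a range added after the data were seen. These counts are not all of the same number of genes. The 27 came with probe sets without a suffix, of 41 members, and with the median over probe sets, where 45 members were above background. The 31 came with probe sets of several genes, of 46 members. No member passed 2-fold under any of the scalings, limits, pseudocount or ways to represent a gene, and 10 passed the lower fold of 1.5. Of these 10, 8 (17.4% of members) were higher in replicate 1, against 10.3% of all genes. The other 2 (4.35%) were higher in replicate 2, against 9.95%. Scored by that median, the log2 differences of Orc1 (0.49), Orc2 (0.44), Orc3 (-0.02), Orc4 (-0.47), Pola2 (-0.16) and Fen1 (0.55) moved by more than the SD of 0.51 over genes, and with probe sets without a suffix that of Mcm2 was 0.25. Of 271 such gene values under the alternatives, 16 changed sign, 11 of them under that median, 3 without a suffix, 1 with quantile normalization and 1, that of Tyms (0.30), with probe sets of several genes. Apart from quantile normalization, the alternatives with a change of sign represented a gene by other probe sets. The median took in all probe sets of a gene, also those below background. Why probe sets of a gene differed was not tested. Probe sets below the background limit have no usable order.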

Other observations

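The repair and translesion polymerases, which fill gaps and copy past damaged bases, were measured beside the replicative ones. Of 11 genes, 10 were above background on both arrays, with a median log2 difference of 0.16 between replicate 1 and replicate 2 and 6 of the 10 higher in replicate 1. Among those named here, chosen after their values were seen, Rev3l, the catalytic subunit of polymerase zeta, read 11887 in replicate 1 and 10690 in replicate 2. Polb, the main polymerase of base excision repair, read 6329 and 5616, and Polg, which copies mitochondrial DNA, 4633 and 4188. None of the 10 was over 2-fold apart. Polq read 104.9 and 135.4 and was above background on neither array.

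All 7 measured genes that rebuild chromatin behind the fork are given, also chosen after their values were seen. Dnmt1, the maintenance DNA methyltransferase, read 27554 in replicate 1 and 19922 in replicate 2. Its partner Uhrf1 read 26821 and 23609, and the histone chaperone Nasp 19412 and 14452. Both chaperones Asf1a (7431 and 9826) and Asf1b (5917 and 6404) leaned to replicate 2, as did Supt16, of the histone chaperone FACT (26747 and 30522). Chaf1b, a chromatin assembly factor subunit, read 2352 and 1970.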
